A study of Mus musculus with 111 samples.

Results

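The left gastrocnemius muscles of mice labelled as tenotomy were compared with the gastrocnemius muscles of sham-operated mice 14 days after surgery. Every array with the tenotomy label at day 14 was taken, giving 5 left legs of 5 animals, and every sham array of day 14, giving 8 right legs of 8 animals, out of 111 arrays in the series. Each array held the RNA of 1 muscle, and 16029 genes were tested. Tenotomy here means that the Achilles tendon was cut just above the heel bone and the animals then moved freely, which unloads the calf muscle. Sham surgery exposed and handled the tendon and left it whole.

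All mice were male C57BL/6 animals, 8 weeks old at surgery, anaesthetised in the tenotomy cohort with ether and then ketamine and xylazine. Also used were the right legs of the tenotomy animals at day 14 (5 arrays, 4 of them from animals whose left leg is among those 5) and the right legs of 7 naive mice, which were neither treated nor handled. The sources conflict on which leg was cut. The design text puts the cut in the right leg and calls the left legs untreated controls, whereas the sample labels give the tenotomy to the left legs and the control to the right legs. The groups below are therefore named by leg, and the left legs may be either the operated or the opposite legs of the tenotomy animals. Leg side and cohort also differ between the left legs and the sham legs, and their parts in any difference cannot be told apart from that of the surgery. The labels give no time of day for the collection of the muscles.

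The gastrocnemius of the mouse is mostly made of fast fibres, with a minority of slow fibres that carry their own forms of myosin, troponin and tropomyosin and depend on steady loading. Muscle also runs a circadian clock, in which ARNTL and CLOCK or NPAS2 switch on the Period and Cryptochrome genes, whose proteins then repress them, so that the RNA of clock genes changes with the time of day. In wasting muscle, ubiquitin ligases and the proteasome break down protein, and FOXO factors and glucocorticoids switch on many of the genes involved.

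Of the 2 array ratios that bear on RNA integrity, 1 differed between the groups. The 3' probe set of beta-actin over its 5' probe set, as a log2 ratio, stood at -0.58 ± 0.19 in the left legs (SD, n = 5), against -1.12 ± 0.25 in the sham legs (SD, n = 8), with ranges that just met and did not overlap (-0.83 to -0.34 in left legs and -1.53 to -0.83 in sham legs). This difference of 0.54 gave a two-sided exact permutation p of 0.00233 over 1287 splits, and 0.0117 after adjustment over 5 measures. The right legs of the tenotomy animals averaged 0.08 and the naive legs -1.19. The same ratio for Gapdh, whose difference of -0.042 had the opposite sign (adjusted p = 0.111 by the exact permutation test), and the array median (0.111) did not pass. The root mean square distance from the naive mean was 0.53 in left legs and 0.46 in sham legs (exact permutation p = 0.0280, adjusted p = 0.0699). Sham replicate 8 had a 20th percentile of signal of 6.22, against 4 in the median array.

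**Figure D1:**
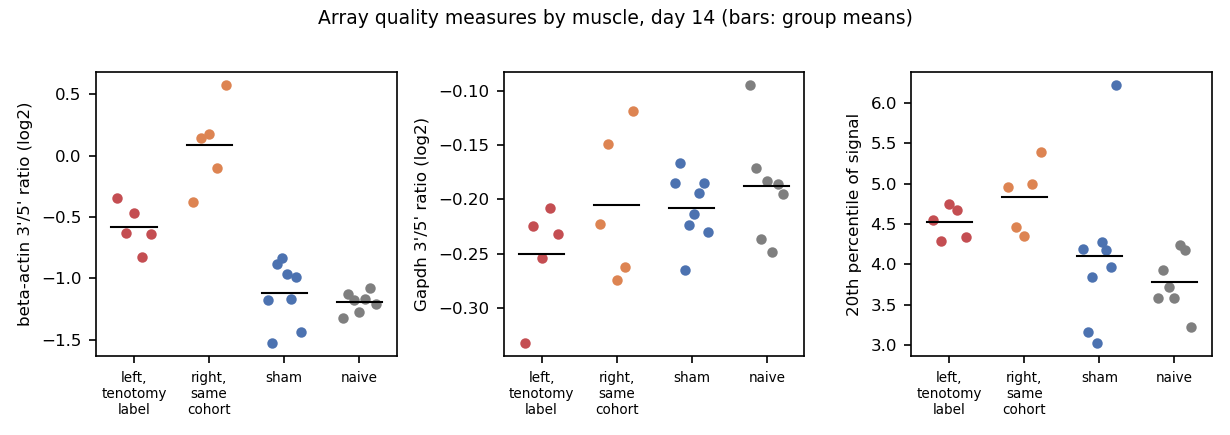
Array measures for each leg at day 14 and for naive legs, with points for arrays and bars for group means. The log2 ratio of the 3' over the 5' probe set of beta-actin lies above every sham leg in all 5 left legs, and it is higher again in the right legs of the tenotomy animals, which average 0.08.

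A gene was called when limma's moderated test gave an adjusted p below 0.05 over all tested genes. Between left legs and sham legs 3326 genes were called, which is 20.7% of those tested, with 1604 higher (10.0%) and 1722 lower (10.7%). Of these, 120 were over 2-fold higher and 105 over 2-fold lower. The 5 left values and the 8 sham values did not overlap for 1223 called genes (7.63% of those tested), 558 higher (3.48%) and 665 lower (4.15%), and for 1268 genes (7.91%) called or not. The median log2 difference over all tested genes was 0.02. With the beta-actin ratio as a covariate, 2733 of the 3326 genes were called in the same direction and none in the opposite one. Within the same model the right legs of the tenotomy animals differed from the sham legs in 5758 genes (35.9%), with 20.6% of tested genes higher and 15.3% lower. The left legs differed from naive legs in 2895 genes (18.1%, with 9.26% higher and 8.80% lower), and the sham legs from naive legs in 363 (2.26%, with 1.02% higher and 1.25% lower). These comparisons share arrays, so their values are set side by side without a measure of likeness. The left legs differed from the right legs of the tenotomy animals in 3719 genes (23.2%), 1557 higher (9.71%) and 2162 lower (13.5%). Each gene is given by its brightest probe set, and Aco1, Acta2, Agbl5, Atp2a2, C1qb, Cd36, Clock, Csnk1d, Dnaja1, Fabp4, Fbxo30, Fbxo32, Gabarapl2, Glul, Klf9, Map1lc3b, Met, Mmp14, Mt1, Mybpc1, Nr1d2, Nrip1, Odc1, Psat1, Psmc2, Rora, Slc2a4, Sod1, Tapbp, Tef, Timp3, Tpm3 and Zbtb16 had at least 1 further probe set with a left against sham difference of the opposite sign. The other probe set of Psat1, for example, stood at 0.24. List counts of left against sham legs at day 14 are to be read beside the 10.0% of all tested genes called higher and the 10.7% called lower.

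**Figure D2:**
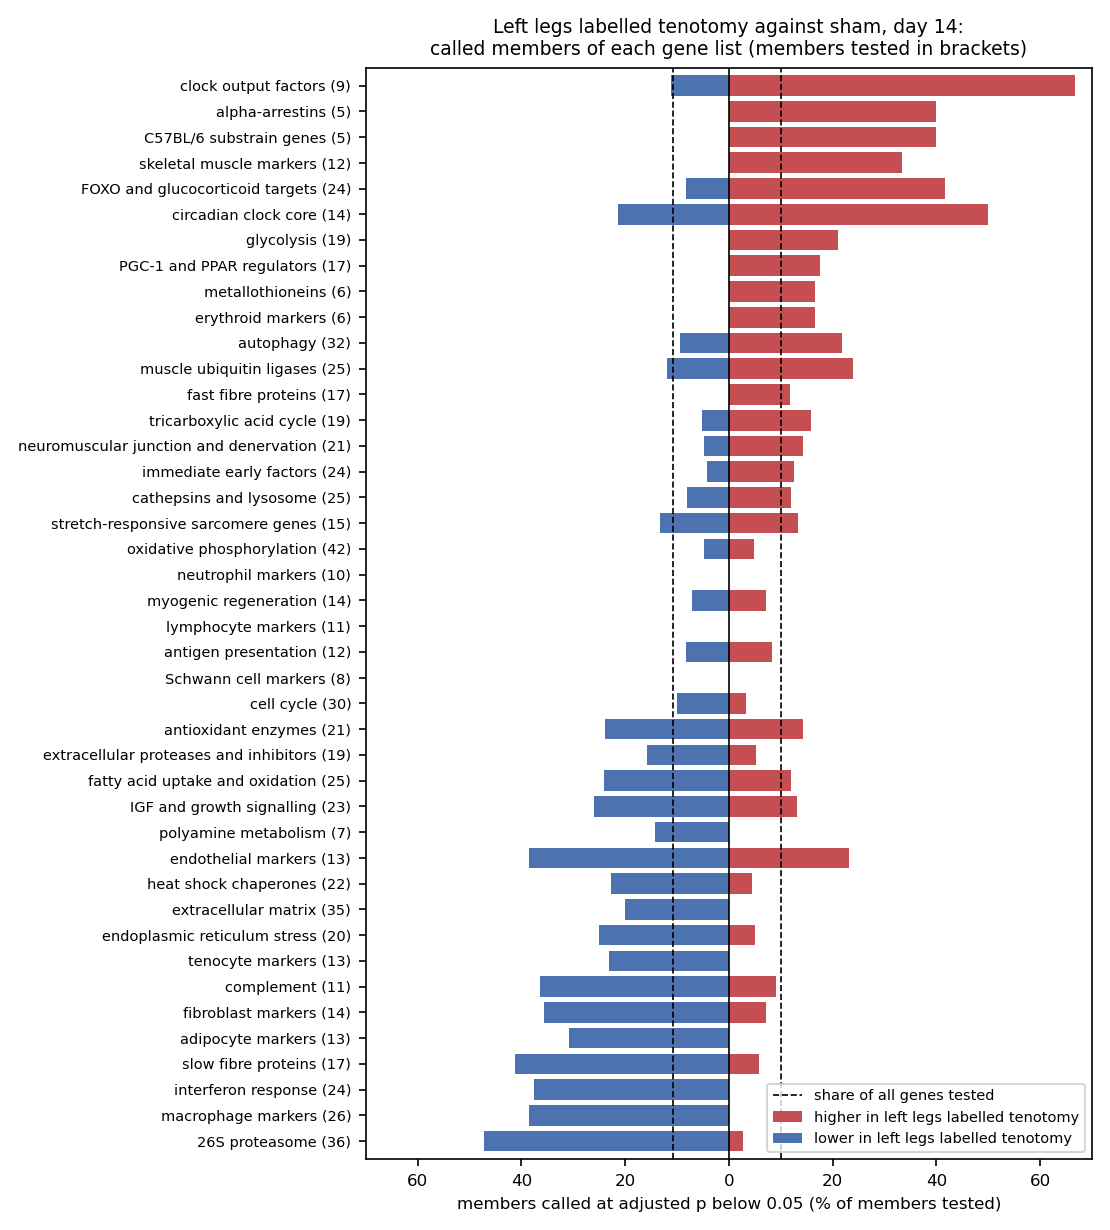
Share of the tested members of each gene list called higher or lower in left legs than in sham legs at day 14, in percent, with dashed lines at the shares over all 16029 tested genes (10.0% higher and 10.7% lower). On the higher side are 6 of 9 clock output factors and 7 of 14 clock core genes, and on the lower side 17 of 36 proteasome genes, 7 of 17 slow fibre genes and 10 of 26 macrophage markers.

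Clock genes made up a large share of the strongest differences. Of the 15 largest increases among genes whose groups did not overlap, 6 were members of the clock lists, namely Per2, Ciart, Per1, Per3, Dbp and Cry2. In the clock core list 7 of 14 tested members were higher and 3 lower, with a median log2 difference of 0.26. Among the clock output factors 6 of 9 were higher and 1 lower, with a median of 0.89. Promoters of 5 of these genes are shown because they hold an element through which the clock is known to act and because the genes lie on both sides of the difference. The E-box (CACGTG) is the site of ARNTL with CLOCK, the D-box (TTATGTAA) is bound by DBP, TEF, HLF and NFIL3, and the core of the ROR element (TAGGTCA) is bound by ROR and REV-ERB receptors. Windows of 250 bases before to 50 after each start were taken from RefSeq on GRCm38.p6 and searched on both strands, and capitals mark the matches. Per1 is chr11:69098699-69098998 on the plus strand, Ciart chr3:95882179-95882478 on the minus strand, Per3 chr4:151044616-151044915 on the minus strand, Arntl chr7:113207261-113207560 on the plus strand and Nfil3 chr13:52980990-52981289 on the minus strand.
Per1: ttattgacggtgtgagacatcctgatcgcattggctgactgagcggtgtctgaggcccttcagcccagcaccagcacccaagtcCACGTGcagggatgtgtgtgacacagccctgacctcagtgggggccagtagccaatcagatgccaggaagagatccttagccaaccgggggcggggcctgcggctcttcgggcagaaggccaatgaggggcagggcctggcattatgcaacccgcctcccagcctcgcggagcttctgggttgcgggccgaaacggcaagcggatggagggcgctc
Ciart: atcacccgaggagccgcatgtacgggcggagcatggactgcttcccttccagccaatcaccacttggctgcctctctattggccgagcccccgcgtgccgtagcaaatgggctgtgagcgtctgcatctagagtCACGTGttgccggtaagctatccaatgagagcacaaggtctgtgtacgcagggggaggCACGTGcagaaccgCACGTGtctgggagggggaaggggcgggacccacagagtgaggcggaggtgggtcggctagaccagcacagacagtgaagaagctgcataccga
Per3: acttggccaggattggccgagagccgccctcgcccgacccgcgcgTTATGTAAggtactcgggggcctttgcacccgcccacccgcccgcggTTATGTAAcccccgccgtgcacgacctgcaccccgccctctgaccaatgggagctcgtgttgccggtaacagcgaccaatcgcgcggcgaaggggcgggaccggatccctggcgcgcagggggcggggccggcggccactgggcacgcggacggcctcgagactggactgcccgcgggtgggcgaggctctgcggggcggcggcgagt
Arntl: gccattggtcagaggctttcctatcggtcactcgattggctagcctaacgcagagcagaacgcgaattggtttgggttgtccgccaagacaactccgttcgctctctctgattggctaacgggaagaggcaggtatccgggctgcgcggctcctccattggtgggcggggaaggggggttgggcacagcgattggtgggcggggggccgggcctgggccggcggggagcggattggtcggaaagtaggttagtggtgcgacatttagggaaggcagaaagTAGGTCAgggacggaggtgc
Nfil3: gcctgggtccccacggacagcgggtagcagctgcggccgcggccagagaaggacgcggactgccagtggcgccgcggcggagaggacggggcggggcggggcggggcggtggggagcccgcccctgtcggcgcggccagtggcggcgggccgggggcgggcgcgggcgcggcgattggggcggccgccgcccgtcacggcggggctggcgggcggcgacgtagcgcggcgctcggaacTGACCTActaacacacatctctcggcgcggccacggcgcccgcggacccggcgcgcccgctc
The Per1 window holds 1 E-box and the Ciart window 3, the Per3 window holds 2 D-boxes, and Arntl and Nfil3 each hold 1 ROR element core, which in Nfil3 lies on the opposite strand and reads TGACCTA. Windows were found for 19 of the 24 genes of the clock lists, and 5 of the 19 held an E-box, 1 a D-box and 2 a ROR core. Among 32851 mouse promoters, 7.15% held the E-box, 0.938% the D-box and 2.61% the ROR core. The clock counts are of genes with a match in any of their windows and the percentages are of single windows, so they are not like measures. A match describes the letters of the window and is no evidence that a factor was bound.

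The Period genes, whose proteins repress the clock's activators, rose in the left legs. Per2 had signals of 139, 154, 117, 100.5 and 169 in the 5 left legs, against 8.65 to 24.1 with a median of 14.2 in the 8 sham legs. Every left leg was several times higher than the highest sham leg, and the log2 difference was 2.94 (SE 0.30, adjusted p = 7.51e-13). Per1 gave 368, 453, 207, 365 and 408 in left legs, against 47.8 to 133.5 with a median of 65.1 in sham legs. The left leg with 207 stood below the other left legs and still above all sham legs, and the log2 difference was 2.15 (SE 0.30, adjusted p = 3.04e-08). For Per3 the left legs gave 221, 242, 179, 194 and 241, against 41.4 to 92.3 with a median of 49.7 in the sham legs. The groups were again apart, with a log2 difference of 1.90 (SE 0.20, adjusted p = 2.86e-12).

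The repressor genes Cry2 and Ciart behaved alike. Cry2, a cryptochrome, gave 252, 219.8, 268, 243 and 187 in left legs, against 72.5 to 131 with a median of 83.5 in sham legs, a log2 difference of 1.38 (SE 0.15, adjusted p = 2.92e-12). Ciart, a repressor of ARNTL and CLOCK also called Chrono, gave 112, 192, 95.7, 134 and 108.5 in left legs, against 4.73 to 53.1 with a median of 23.4 in sham legs. Neither gene's groups overlapped, and Ciart's log2 difference was 2.25 (SE 0.32, adjusted p = 2.74e-08). The nuclear receptor genes Nr1d2 (0.52) and Rora (0.40) also rose, both chosen after their values were seen, whereas Nr1d1 (REV-ERB alpha) had a log2 difference of -0.48 that missed the threshold (adjusted p = 0.0824). Cry1, Csnk1d and Csnk1e, the last pair being kinases of the Period proteins, did not pass.

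The activator gene Arntl and its partners went the other way. Arntl (BMAL1) gave 45.9, 41.0, 52.7, 40.5 and 44.6 in left legs, against 103 to 216 with a median of 167 in sham legs. All left legs lay below all sham legs, and Arntl fell by 1.71 in log2 units (SE 0.19, adjusted p = 1.80e-11). Its partners Npas2 and Clock, chosen after their values were seen, had log2 differences of -1.17 (SE 0.30, adjusted p = 0.00195) and -0.42 (SE 0.11, adjusted p = 0.00195), and both overlapped between groups. Npas2 is a dim gene here, with left signals of 1.30 to 13.9 and sham signals of 7.50 to 26.4.

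**Figure D3:**
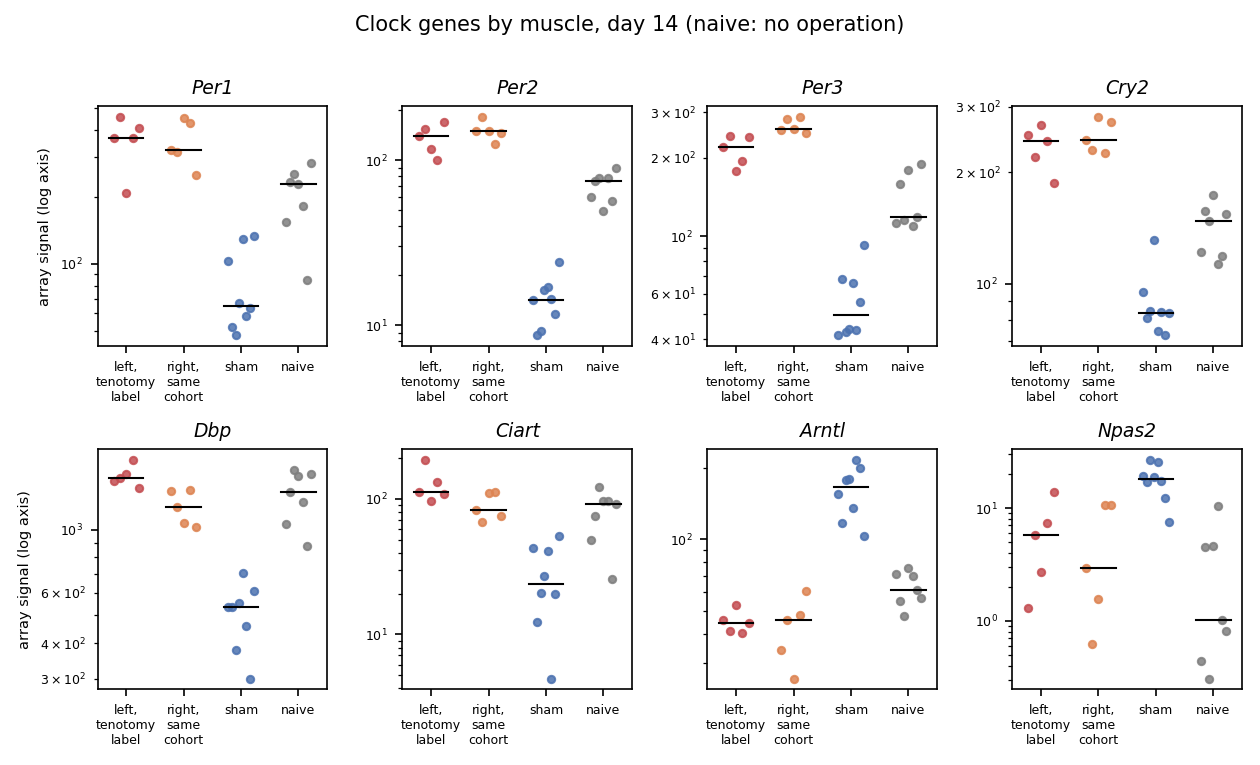
Signal on a log axis of 8 clock genes in each left leg, right leg and sham leg at day 14 and in naive legs, with points for arrays and bars for group medians. Per1, Per2, Per3, Cry2, Dbp and Ciart are higher in left legs than in all sham legs and Arntl is lower than in all of them, and for these 7 genes the right legs of the tenotomy animals lie on the same side of all sham legs.

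Genes that the clock drives also differed between left and sham legs. Dbp, a factor that carries the rhythm to other genes through D-boxes, gave 1483, 1513, 1571, 1748 and 1395 in left legs, against 300.6 to 704 with a median of 535 in sham legs. Its log2 difference was 1.63 (SE 0.25, adjusted p = 4.00e-07), and no left leg came near the sham range. Klf9, a zinc finger factor also switched on by glucocorticoids, gave 4323, 4875, 4191, 4333 and 3980 in left legs, against 1800 to 2269 with a median of 2152 in sham legs, a log2 difference of 1.05 (SE 0.10, adjusted p = 5.55e-14). The ubiquitin protease gene Usp2 rose by 1.16 (SE 0.13, adjusted p = 1.67e-11) and Tef, a relative of Dbp, by 0.72 (SE 0.12, adjusted p = 1.77e-06), both without overlap. Hlf (0.89) and Wee1 (1.08), the kinase that holds back entry into mitosis, rose too, and Nfil3, which competes with DBP for D-boxes, fell by 1.39 (SE 0.27, adjusted p = 4.94e-05). Those last 3 genes were chosen after their values were seen. For Nfil3 the groups overlapped, since left replicate 2 had a signal of 203 beside 36.5 to 88.2 in the other left legs and 145 to 395 in sham legs.

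Both legs of the tenotomy animals and the sham legs stood on opposite sides of naive muscle for several of these genes. Per2 had a median of 139 in left legs, 150 in right legs, 14.2 in sham legs and 74.4 in naive legs. Against naive legs, Per2 was 0.93 higher in left legs (adjusted p = 0.0254) and 2.01 lower in sham legs (log2 difference -2.01, adjusted p = 1.97e-07). Arntl was 1.28 higher in sham legs than in naive legs (adjusted p = 1.97e-07), and in left legs its log2 difference from naive was -0.43 (adjusted p = 0.122). Of the clock core genes 4 were called higher and none lower in left legs than in naive legs, while 3 were higher and 6 lower in sham legs than in naive legs. Of the 9 clock output factors 1 was higher and 1 lower in left legs than in naive legs. In sham legs 5 of the 9 were lower than in naive legs and none higher, where 1.25% of all genes were lower. Medians of Usp2 were 2437 in left legs, 2430 in naive legs and 1226 in sham legs, and those of Dbp were 1513, 1356 and 535. The right legs differed from sham legs by 3.10 for Per2, 2.13 for Per1 and -1.83 for Arntl, beside 2.94, 2.15 and -1.71 for the left legs. Left and right legs of the tenotomy animals were not called different for Per1, Per2, Per3, Cry2, Ciart, Dbp or Arntl, with log2 differences from -0.30 to 0.49. Other clock genes were higher in left than in right legs, 3 of 14 in the core list (Csnk1d, Csnk1e and Rora, by 0.36, 0.39 and 0.38) and 4 of 9 output factors (Hlf, Klf9, Tef and Usp2, by 0.45, 0.29, 0.38 and 0.39), with none lower, where 9.71% of all genes were higher. With no time of day in the labels, cohort, collection time and surgery cannot be told apart for clock genes.

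Genes that FOXO factors or glucocorticoids are known to switch on were also shifted up against sham legs. Of 24 tested members 10 were higher and 2 lower, where 10.0% of all tested genes were higher and 10.7% lower. Their median log2 difference was 0.39, and Per1 is counted in this list too. Sgk1, a kinase induced by glucocorticoids, gave 3100, 3205, 2623, 2626 and 2264 in left legs, against 1028 to 1660 with a median of 1525 in sham legs. Every left leg was above every sham leg (log2 difference 0.93, SE 0.17, adjusted p = 1.98e-05), whereas the right legs differed from sham by -0.02. Foxo4, itself a FOXO factor, gave 991, 1066, 1098, 1016 and 1148 in left legs, against 524 to 626 in sham legs (log2 difference 0.88, SE 0.10, adjusted p = 7.49e-11). Tsc22d3, known as GILZ and a classical glucocorticoid target, rose by 0.55 (SE 0.12, adjusted p = 0.000505) without overlap. Ddit4 (REDD1), an inhibitor of mTORC1, gave 137.5, 501, 170, 217 and 279 in left legs, against 80.6 to 129.7 with a median of 88.8 in sham legs (log2 difference 1.28, SE 0.42, adjusted p = 0.0210). Its call was lost without left replicate 2 or left replicate 5 (highest adjusted p = 0.103), and against naive legs its difference was -0.02. The 2 members that fell were Angptl4, a secreted lipase inhibitor (-1.39), and the zinc finger factor Zbtb16 (-0.67). Foxo1 rose by 0.41 (adjusted p = 0.0375), a call lost without any of 7 libraries (highest adjusted p = 0.126). The named exceptions aside, glutamine synthetase Glul (0.87), Cebpb (0.59), Nfkbia (0.40) and Depp1 (1.72) were the other members called higher. Against naive legs the list was not shifted up in left legs, with a median of -0.01. There 3 members were higher and 2 lower, beside 9.26% and 8.80% of all tested genes. In sham legs 8 members were lower than in naive legs and none higher, where 1.25% of all tested genes were lower.

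Slow fibre proteins were the clearest muscle group on the lower side. Of 17 tested members 7 were lower and 1 higher, with a median log2 difference of -0.60. Since whole muscle was measured, fewer slow fibres and less of these RNAs per slow fibre cannot be told apart, and the same holds for every cell type below. Tpm3, the slow tropomyosin, gave 347, 437, 222, 753 and 1520 in left legs, against 1241 to 2491 with a median of 1994 in sham legs. Left replicate 5 lay inside the sham range and the other 4 left legs below it, and Tpm3 fell by 1.90 (SE 0.35, adjusted p = 1.55e-05). The troponins behaved alike. Tnni1, slow troponin I, gave 255, 317, 183, 593 and 803 in left legs, against 722 to 1636 with a median of 1256 in sham legs (log2 difference -1.69, SE 0.34, adjusted p = 8.24e-05). Tnnc1, slow and cardiac troponin C, gave 711, 597, 374, 1375 and 2305 in left legs, against 2009 to 3158 with a median of 2628 in sham legs (log2 difference -1.59, SE 0.32, adjusted p = 8.20e-05). Replicate 3 was the lowest left leg and replicate 5 the highest for all 3 genes.

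Other parts of the slow programme varied. Tnnt1, slow troponin T, fell by 1.41 (adjusted p = 0.00111), Atp2a2, the slow calcium pump SERCA2, by 0.89 (adjusted p = 0.00114), and Myl2, a slow myosin light chain, by 0.88 (adjusted p = 0.00498), all chosen after their values were seen. The Myl2 call was lost without left replicate 3 (adjusted p = 0.0594). Myh7, the slow myosin heavy chain, gave 887, 1014, 557, 1674 and 2787 in left legs, against 1246 to 3267 with a median of 2074 in sham legs. Its groups overlapped widely and its log2 difference of -0.86 (SE 0.38) did not pass (adjusted p = 0.0975), although it was -1.68 against naive legs (adjusted p = 0.000807). Sln, sarcolipin, a small inhibitor of the calcium pump, gave 42.3, 87.7, 40.7, 42.3 and 52.6 in left legs, against 119.5 to 209.6 with a median of 169.6 in sham legs. It fell by 1.63 (SE 0.36, adjusted p = 0.000350) with no overlap, whereas the right legs of the same cohort had signals of 908 to 1695 and differed from sham by 2.80 (adjusted p = 3.21e-10). Mybpc1, the slow form of myosin-binding protein C, was the member called higher (0.38), but only 1 of its 3 probe sets had this sign and the lowest stood at -0.63.

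**Figure D4:**
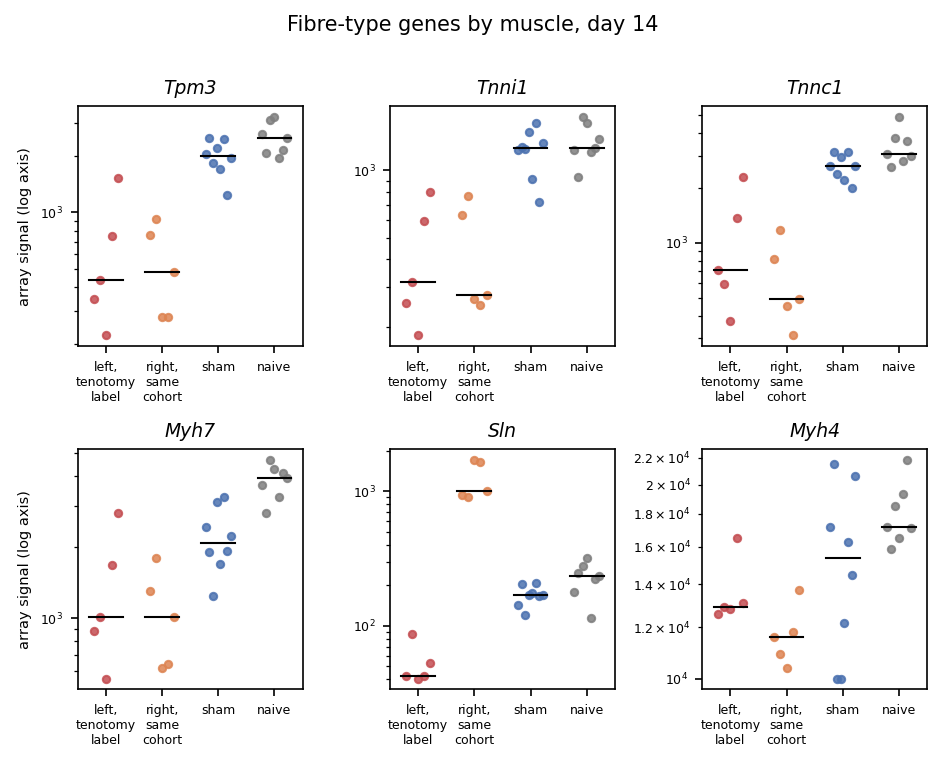
Signal on a log axis of 6 fibre-type genes in each left leg, right leg and sham leg at day 14 and in naive legs, with points for arrays and bars for group medians. Tpm3, Tnni1 and Tnnc1 are low in both legs of the tenotomy animals, Sln is low in left legs and high in right legs, and Myh4 overlaps between groups.

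The slow fibre difference was also present at the earlier days and against naive muscle. At day 2, 10 members were lower in left legs than in sham legs, where 5.66% of all genes were, and at day 7, 11 were, against 9.45% of all genes, with none higher at either day. Tpm3 differed by -3.24 at day 2, -2.52 at day 7 and -1.90 at day 14, and Tnnc1 by -3.05, -2.49 and -1.59. Against naive legs 10 members were lower in left legs, where 8.80% of all tested genes were, and in sham legs no member was called in either direction. In right legs 8 members were lower and 3 higher than in sham legs, where 15.3% of all tested genes were lower and 20.6% higher.

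Of 17 tested fast fibre proteins 2 were higher and none lower, with a median of 0.04. Myh4, the myosin of the fastest fibres, had signals of 12600 to 16500 in left legs, against 10000 to 21500 in sham legs, and its log2 difference of -0.12 did not pass (adjusted p = 0.752). Myh1, the myosin of type IIX fibres, had a log2 difference of 0.45 (adjusted p = 0.0321), which was lost without any of 6 libraries (highest adjusted p = 0.0843). Mylk2, the skeletal myosin light chain kinase, gave 3084, 3253, 3090, 2935 and 2956 in left legs, against 1358 to 2382 with a median of 2067 in sham legs (log2 difference 0.65, SE 0.16, adjusted p = 0.00142). With the beta-actin ratio as a covariate, 15 of the 17 members were called higher. Among 12 skeletal muscle markers 4 were higher and none lower, and 10 with that covariate. Cacna1s, the voltage sensor of the muscle calcium channel, rose by 0.69 (SE 0.12, adjusted p = 3.44e-06), and Ryr1, the calcium release channel, by 0.51 (adjusted p = 0.0175, lost without left replicate 4 or sham replicate 3 and when probe sets were averaged). The summed signal of the 12 markers was 124897 to 156828 in left legs and 86539 to 164401 in sham legs, so every array carried the markers of its labelled tissue.

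The 2 ubiquitin ligases best known from wasting muscle did not pass the test. Fbxo32 (atrogin-1) gave 1251, 917, 1096, 1049 and 1118 in left legs, against 611 to 1329 with a median of 1007 in sham legs, a log2 difference of 0.19 (SE 0.25, adjusted p = 0.652). Trim63 (MuRF1) gave 1738, 2037, 1796, 1396 and 1701 in left legs, against 1428 to 2434 with a median of 1930 in sham legs, a log2 difference of -0.15 (SE 0.16, adjusted p = 0.593). All left legs lay inside the sham range for Fbxo32, and 4 of 5 did for Trim63. Of 25 tested genes in the muscle ligase list 6 were higher and 3 lower, with a median of 0.10. Asb15, a muscle ligase subunit, rose by 0.89 (SE 0.19, adjusted p = 0.000186), and Klhl41, a sarcomere-associated ligase adaptor, by 0.43 (SE 0.09, adjusted p = 8.11e-05). Fbxo30 (MUSA1), a ligase held down by BMP signalling, gave 66.2, 68.7, 74.9, 78.2 and 72.4 in left legs, against 109.7 to 139 with a median of 119.9 in sham legs. It fell by 0.72 (SE 0.10, adjusted p = 9.32e-09), a call lost when its probe sets were averaged. Another member called higher, Cavin4 (0.43), is a protein of caveolae and no ligase.

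Subunits of the proteasome, which degrades ubiquitin-tagged proteins, were lower in part and by small amounts. Among all tested genes 10.7% were lower at day 14, and 4.15% were lower without overlap. Of 36 tested proteasome members 17 were lower, 1, Psmc2, was higher and 18 were not called, with a median of -0.15 and 11 without overlap on the lower side. When probe sets were averaged, 10 were lower and 4 higher. Psmb5, a catalytic subunit, gave 1440, 1732, 1603, 1483 and 1757 in left legs, against 2051 to 2350 with a median of 2166 in sham legs (log2 difference -0.43, SE 0.07, adjusted p = 1.16e-06). Psma4, of the outer ring, fell by 0.45 (SE 0.08, adjusted p = 3.17e-06), Psmb2 by 0.55 (SE 0.10, adjusted p = 5.25e-06) and Psmb6 by 0.38 (SE 0.07, adjusted p = 1.15e-05), and the left and sham groups were apart in each. At day 7, 18 members were lower and 1 higher, where 9.45% of all tested genes were lower and 9.70% higher. At day 2, 7 were lower and 4 higher, where 5.66% of all tested genes were lower and 4.34% higher.

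Autophagy and lysosomal genes were mixed. Of 32 autophagy genes 7 were higher and 3 lower, with a median of 0.11, where 10.0% of all tested genes were higher and 10.7% lower. Ulk1, the kinase that starts autophagy, gave 713, 579, 525, 563 and 645 in left legs, against 290.5 to 508 with a median of 450.0 in sham legs (log2 difference 0.52, SE 0.11, adjusted p = 0.000309). Map1lc3b (LC3B) rose by 0.53 (adjusted p = 7.85e-05, lost when probe sets were averaged), and Gabarapl2, of the same family of autophagosome proteins, fell by 0.57 (SE 0.07, adjusted p = 1.76e-09). Of 25 lysosomal genes 3 were higher and 2 lower, near the shares over all tested genes. Psap, the precursor of the saposins, rose by 0.37 (adjusted p = 0.000303, lost when probe sets were averaged), and the protease gene Lgmn fell by 0.68 (adjusted p = 0.0193, lost without left replicate 1 or sham replicate 2). Ctsl, cathepsin L, had a log2 difference of -0.27 that did not pass (adjusted p = 0.0609).

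Growth signalling genes were more often lower than higher. Of 23 tested members 6 were lower and 3 higher, with a median of -0.13, where 10.7% of all tested genes were lower and 10.0% higher. Igf1, the growth factor that muscle makes for itself, gave 347, 220.3, 395, 274 and 229.6 in left legs, against 396 to 814 with a median of 679.6 in sham legs. The highest left leg lay just under the lowest sham leg, and Igf1 fell by 1.18 (SE 0.21, adjusted p = 1.15e-05), while the right legs differed from sham by -0.05. Its receptor gene Igf1r gave 142, 130, 124, 150.4 and 103 in left legs, against 48.0 to 77.8 with a median of 69.9 in sham legs, and rose by 0.89 (SE 0.12, adjusted p = 6.87e-09). Igfbp6, a binding protein for insulin-like growth factors, fell by 0.91 (SE 0.16, adjusted p = 3.89e-06), and the kinase gene Akt1 by 0.46 (SE 0.10, adjusted p = 0.000466), a call lost when probe sets were averaged. Irs1 (-0.47), Smad3 (-0.45) and the myostatin inhibitor Fst (-0.58) fell, and Mtor (0.31) and the myostatin receptor Acvr2b (0.38) rose.

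Genes of denervation, regeneration and stretch are given beside the 20.7% of all tested genes that were called. At the neuromuscular junction 3 of 21 were higher and 1 lower. They were Lrp4 (0.73, adjusted p = 3.28e-05) and Agrn (0.55, adjusted p = 0.00284), the receptor and ligand that cluster acetylcholine receptors, and the receptor subunit Chrnb1 (0.38, adjusted p = 0.0359, lost without any of 6 libraries and with the beta-actin covariate), beside Nnmt on the lower side (-0.77). Chrna1, a subunit that rises strongly on denervation, had a log2 difference of -0.22 (adjusted p = 0.4001). Among 14 myogenic genes, Met rose (0.56) and Myod1 fell (-0.50), and Myog had signals of 31.6 to 59.7 in left legs and 27.4 to 62.8 in sham legs (log2 difference 0.03, adjusted p = 0.934). In the stretch list 2 of 15 were higher and 2 lower, and neither Csrp3 (0.01, adjusted p = 0.988) nor Ankrd2 (-0.71, adjusted p = 0.106) passed. Of 24 immediate early genes 3 were higher and 1 lower. Jun rose by 0.56 (adjusted p = 0.00755, lost without left replicate 3 and when probe sets were averaged) and Egr1, a growth response factor, fell by 1.00 (adjusted p = 0.0256, lost without any of 4 libraries).

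Markers of macrophages were lower. Of 26 tested markers 10 were lower and none higher, with a median of -0.42, and 7 were lower without overlap. Among all tested genes 10.7% were lower, and 4.15% were lower without overlap. The summed signal of the 26 markers was 1645 to 2559 in left legs and 4250 to 7419 in right legs of the tenotomy animals. It was 2405 to 3687 in sham legs and 2330 to 3276 in naive legs. Lyz2, lysozyme of macrophages and neutrophils, gave 293, 355, 494, 441 and 255 in left legs, against 569.6 to 997 with a median of 817 in sham legs (log2 difference -1.11, SE 0.26, adjusted p = 0.000684). C1qb, a chain of the first complement component, gave 89.5, 73.8, 133, 91.8 and 56.99 in left legs, against 142 to 231 with a median of 186 in sham legs (log2 difference -1.07, SE 0.24, adjusted p = 0.000394, lost when probe sets were averaged). Mrc1, the mannose receptor of tissue macrophages, fell by 0.79 (SE 0.20, adjusted p = 0.00189). Neither the 10 neutrophil nor the 11 lymphocyte markers held a called member, and MAS5 gives every probe set a positive signal, so absence of a cell type cannot be read from these values. The neutrophil list had a median of 0.21. Its member S100a9 went the other way without a call, with 2.23 to 14.8 in left legs and 17.4 to 125 in sham legs. In naive legs S100a9 ran from 11.5 to 474. In right legs 16 of the 26 macrophage markers were higher than in sham legs and none lower, where 20.6% of all tested genes were higher.

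Complement and interferon genes were also more often lower than higher. In the complement list 4 of 11 were lower and 1 higher, among them C1qa (-0.996, adjusted p = 0.00178) and C1qc (-0.74, adjusted p = 0.0219, lost without any of 3 libraries). C1qa, C1qb and C1qc belong to the macrophage markers too and were already counted there. In the interferon list 9 of 24 were lower and none higher. Ifi27 fell by 0.59 (SE 0.12, adjusted p = 0.000110), and the immunoproteasome subunits Psmb10 and Psmb8 fell by 0.72 (SE 0.15, adjusted p = 0.000136) and 0.80 (SE 0.19, adjusted p = 0.000714). B2m, the light chain of class I molecules, gave 939, 1178, 1804, 1368 and 823 in left legs, against 2019 to 3073 with a median of 2661 in sham legs. It fell by 1.10 (SE 0.18, adjusted p = 9.73e-07), and it was the 1 gene of 12 in the antigen presentation list that did, with Tapbp called higher (0.35) on 1 probe set while its other one stood at -0.55. B2m also differed from sham by -1.23 at day 2 and -1.20 at day 7.

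Mast cell proteases were among the largest decreases. Mcpt4 gave 20.5, 12.3, 3.32, 21.8 and 4.002 in left legs, against 33.9 to 81.8 with a median of 46.2 in sham legs, and fell by 1.93 (SE 0.33, adjusted p = 3.13e-06). Cpa3, mast cell carboxypeptidase, gave 31.5, 29.6, 37.0, 49.9 and 12.7 in left legs, against 51.4 to 97.4 with a median of 80.1 in sham legs, and fell by 1.32 (SE 0.21, adjusted p = 5.98e-07). Neither gene's groups overlapped. Both were also lower at day 7 (Mcpt4 by -1.26 and Cpa3 by -0.96 on the log2 scale) and at day 2 (-2.07 and -1.12).

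Matrix and tendon genes separated the left legs from the right legs of the same cohort. In the extracellular matrix list 7 of 35 members were lower in left legs than in sham legs and none higher, with a median of -0.29. Among all tested genes 10.7% were lower. With the beta-actin covariate 13 members were lower in left legs than in sham legs. In right legs 32 members were higher than in sham legs and none lower, where 20.6% of all tested genes were higher. Compared directly, 33 members were lower in left than in right legs and none higher, with a median of -1.60. In that comparison 13.5% of all tested genes were lower. Lum, lumican, a proteoglycan of collagen fibres, gave 253, 273, 275, 329 and 279 in left legs, against 333 to 708.5 with a median of 518 in sham legs (log2 difference -0.86, SE 0.22, adjusted p = 0.00166). Lox, which cross-links collagen, fell by 0.88 (adjusted p = 0.00877, lost without left replicate 5), and P4ha1, a collagen prolyl hydroxylase subunit, by 0.46 (SE 0.11, adjusted p = 0.00125). Of 19 extracellular proteases and inhibitors 1 was higher and 3 lower. Timp3 rose by 0.70 (adjusted p = 5.83e-06, lost when probe sets were averaged), and Timp1, another inhibitor of metalloproteinases, gave 10.5, 15.5, 25.7, 11.4 and 2.23 in left legs, against 26.2 to 65.8 with a median of 40.0 in sham legs (log2 difference -1.55, SE 0.42, adjusted p = 0.00387). Timp1 differed from sham by 1.64 in the right legs. Mmp14, a membrane metalloproteinase, had a log2 difference of -0.62 (adjusted p = 0.0300), lost without any of 4 libraries.

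The tendon marker Tnmd, tenomodulin, gave 216, 312, 208, 195 and 84.5 in left legs, against 379 to 615 with a median of 434 in sham legs. It fell by 1.25 (SE 0.32, adjusted p = 0.00189) without overlap, and right legs differed from sham by 1.29. Of 13 tenocyte markers 3 were lower in left legs than in sham legs, Tnmd, Tppp3 (-0.86) and Egr1, and none higher. In right legs 10 were higher than in sham legs, where 20.6% of all tested genes were. The summed signal of the 13 markers was 2817 to 7092 in left legs, 12245 to 19649.5 in right legs, 4813 to 6210 in sham legs and 4287 to 6174 in naive legs. Of 14 fibroblast markers 5 were lower and 1 higher in left legs, with Mfap5, a microfibril protein, falling by 0.93 (SE 0.22, adjusted p = 0.000868). Cell cycle genes gave 1 higher and 3 lower of 30.

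Adipocyte, endothelial and nerve markers gave smaller groups. Of 13 adipocyte markers 4 were lower and none higher, with a median of -0.50. Adipoq, the fat cell hormone adiponectin, gave 72.5, 311, 239, 115 and 30.2 in left legs, against 267 to 628 with a median of 424 in sham legs (log2 difference -1.79, SE 0.40, adjusted p = 0.000398). Left replicate 2 reached into the sham range. Retn, resistin, fell by 1.24 (adjusted p = 0.00123), and Scd1, a fatty acid desaturase, by 1.49 (adjusted p = 0.00203). Endothelial markers split, with 3 of 13 higher and 5 lower. Emcn, a capillary and venous surface protein, fell by 0.73 (SE 0.14, adjusted p = 1.84e-05) and Cldn5, of tight junctions, by 0.79 (adjusted p = 0.00150), whereas Vwf, von Willebrand factor, rose by 0.53 (adjusted p = 0.00303). None of 8 Schwann cell markers was called. Of 6 erythroid markers Hba-a1, a haemoglobin chain, rose by 1.25 (adjusted p = 0.00323), at dim signals of 6.48 to 18.9 in left legs and 1.05 to 8.74 in sham legs.

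**Figure D5:**
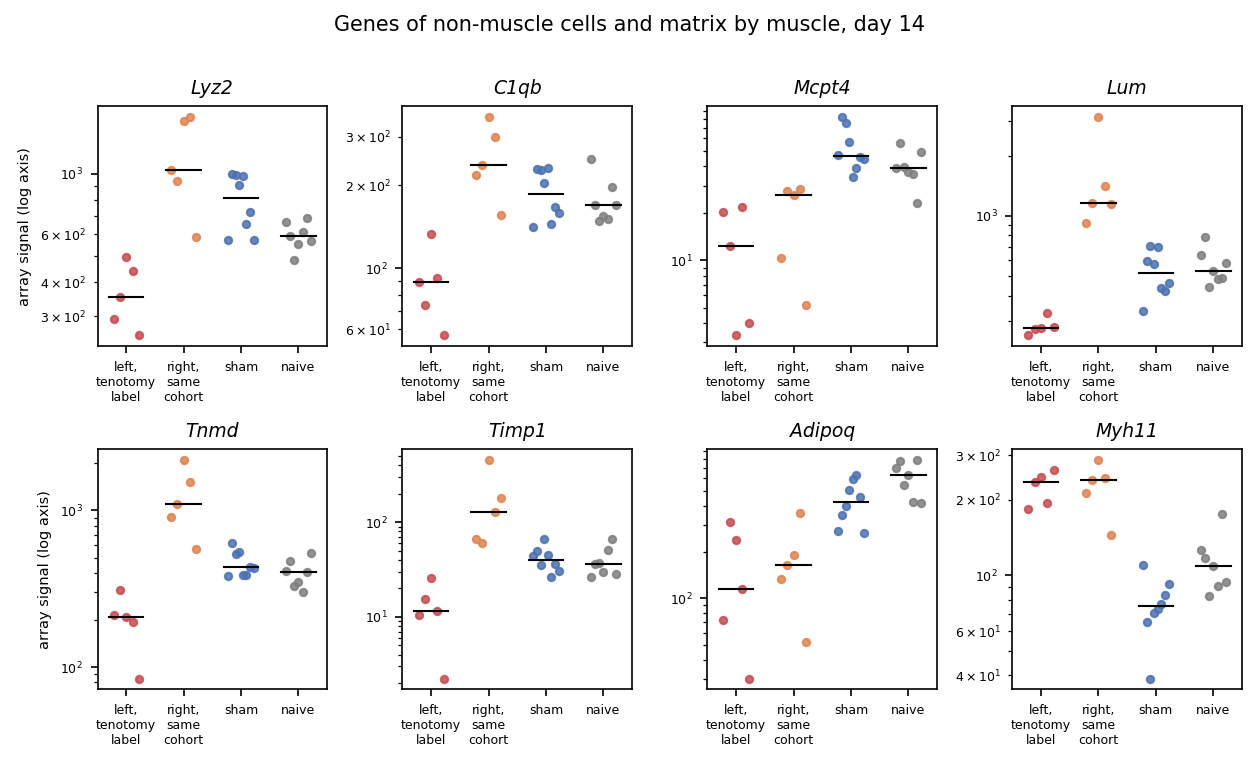
Signal on a log axis of 8 marker genes in each left leg, right leg and sham leg at day 14 and in naive legs, with points for arrays and bars for group medians. Lyz2, C1qb, Lum, Tnmd and Timp1 are lower in left legs than in sham legs and have higher medians in right legs than in sham legs, Mcpt4 and Adipoq have lower medians than in sham legs in both legs of the tenotomy animals, and Myh11 is higher in both.

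In the oxidative phosphorylation list 2 of 42 genes were higher and 2 lower, with a median of -0.06. This split depended on the processing, with 13 higher and none lower under the beta-actin covariate and 4 higher and 17 lower after quantile normalization. In right legs 31 members were lower than in sham legs, where 15.3% of all tested genes were. In left legs 19 were lower at day 2 and 26 at day 7, beside 5.66% and 9.45% of all tested genes. Of 19 citric acid cycle genes 3 were higher and 1 lower. Ogdh, a subunit of oxoglutarate dehydrogenase, rose by 0.54 (SE 0.09, adjusted p = 6.26e-07), and Aco1, the cytosolic aconitase, by 0.71 (adjusted p = 5.50e-05, lost when probe sets were averaged).

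Of 19 glycolysis genes 4 were higher and none lower, with a median of 0.10, and 13 were higher with the beta-actin covariate. Hk2, the hexokinase of muscle, gave 2903, 3221, 2620, 2631 and 3252 in left legs, against 1168 to 2299 with a median of 1909 in sham legs (log2 difference 0.68, SE 0.11, adjusted p = 2.99e-07). Slc2a4 (GLUT4), the insulin-dependent glucose transporter, rose by 0.39 (adjusted p = 0.000353, lost when probe sets were averaged), and it differed from sham by -0.21 in right legs. Of 25 fatty acid genes 3 were higher and 6 lower, with a median of 0.02. Cd36, which takes up fatty acids, gave 855, 1221, 812, 1098 and 1320 in left legs, against 1347 to 2107 with a median of 1564 in sham legs (log2 difference -0.64, SE 0.13, adjusted p = 5.02e-05). Fabp4, the fatty acid carrier of fat cells and capillaries, fell by 0.81 (SE 0.14, adjusted p = 3.25e-06, lost when probe sets were averaged). Of 17 regulators of the PGC-1 and PPAR group 3 were higher, with Nrip1, a corepressor of oxidative genes, rising by 0.94 (SE 0.15, adjusted p = 4.68e-07).

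Counts in the heat shock and endoplasmic reticulum lists are given beside the 10.7% of all tested genes called lower and the 10.0% called higher. The median log2 differences of these lists were small, at -0.18 and -0.13. Of 22 heat shock chaperones 5 were lower and 1 higher. Dnaja1, a cochaperone of HSP70, gave 215, 206, 259, 222 and 238 in left legs, against 270.2 to 469 with a median of 396 in sham legs (log2 difference -0.75, SE 0.14, adjusted p = 1.21e-05). Hspb1, the small heat shock protein HSP27, fell by 0.76 (SE 0.17, adjusted p = 0.000468), and Hspa1b, inducible HSP70, did not pass (-0.21, adjusted p = 0.754). Of 20 endoplasmic reticulum stress genes 5 were lower and 1 higher, with Pdia3, a disulfide isomerase, falling by 1.00 (SE 0.17, adjusted p = 3.58e-06) and the secreted factor Manf by 0.67 (adjusted p = 0.000990). Of 21 antioxidant genes 5 were lower and 3 higher, and Gpx1 fell by 0.49 (adjusted p = 6.28e-05). Sod1 fell by 0.44 (adjusted p = 0.000133), and after averaging of probe sets its call was lost and 1 antioxidant gene was lower. Of 6 metallothionein genes and zinc transporters only Slc30a1 was called (0.51), and Mt1 (-0.40, adjusted p = 0.610) and Mt2 (-0.13, adjusted p = 0.885), which glucocorticoids and zinc induce, did not pass. Cirbp, an RNA-binding protein induced by cold, rose by 0.58 (adjusted p = 0.0107). Polyamine genes gave 1 lower of 7, Odc1 (-0.40).

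In the list of genes that differ between C57BL/6 substrains 2 of 5 were higher and none lower. Nnt, the mitochondrial transhydrogenase, which carries a deletion in the C57BL/6J substrain, gave 1380, 1893, 1096, 1781 and 1925 in left legs, against 1094 to 1518 with a median of 1220 in sham legs. The groups overlapped, the log2 difference was 0.37 (adjusted p = 0.00670, lost without left replicate 5), and signals of this size were present in every array of both groups.

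Of 5 alpha-arrestin genes 2 were higher and none lower. Arrdc2, an alpha-arrestin adaptor of receptor trafficking, gave 189, 621, 273, 315.5 and 252 in left legs, against 41.8 to 85.9 with a median of 54.6 in sham legs, and rose by 2.31 (SE 0.52, adjusted p = 0.000414). Left replicate 2 was the highest for Arrdc2, as it was for Ddit4. The median of Arrdc2 was 246.5 in naive legs, beside 273 in left legs, so the sham legs were the low group. Several of the other large differences lay outside the lists. Tob2, an antiproliferative factor, rose by 1.27 (SE 0.22, adjusted p = 3.25e-06), Agbl5, which removes glutamate from tubulin, by 1.28 (SE 0.19, adjusted p = 8.43e-08), and Zc3h6, a zinc finger protein, by 1.35 (SE 0.25, adjusted p = 1.44e-05). Medians of Tob2 were 480 in left legs, 448.5 in naive legs and 212.5 in sham legs. For Zc3h6 they were 69.0, 36.7 and 26.8 in the same order. Agbl5 had 63.8 to 87.2 in left legs, 14.8 to 40.2 in sham legs and 10.8 to 25.2 in naive legs, and against naive legs the left legs passed the test (adjusted p = 8.09e-12) and the sham legs did not (0.54, adjusted p = 0.0674). The neuropeptide Y receptor gene Npy1r (1.26, adjusted p = 0.000211), the somatostatin receptor gene Sstr3 (1.31, adjusted p = 0.00257) and the scavenger receptor gene Ssc4d (1.27, adjusted p = 2.78e-05) were dim, with left signals under 61. Sstr3 lost its call when dim probe sets were kept and a different probe set stood for the gene, and it differed from sham by -0.04 in right legs.

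On the lower side, Psat1, an enzyme of serine synthesis, gave 12.9, 4.004, 9.09, 9.69 and 9.97 in left legs, against 21.4 to 46.4 with a median of 35.9 in sham legs. It fell by 1.60 (SE 0.20, adjusted p = 4.81e-10), beside -0.39 (adjusted p = 0.118) in right legs. Tnfrsf12a (Fn14), the receptor of TWEAK, gave 173, 250.4, 245, 121 and 191 in left legs, against 432 to 685 with a median of 598 in sham legs, and fell by 1.54 (SE 0.24, adjusted p = 5.81e-07). Nmrk2, a muscle kinase that makes NAD from nicotinamide riboside, gave 1040, 419, 911, 855 and 798 in left legs, against 2075 to 2853 with a median of 2336 in sham legs, and fell by 1.62 (SE 0.43, adjusted p = 0.00326). In naive legs Nmrk2 ran from 680.3 to 3376, a range that holds both groups. S100a10, the partner of annexin A2, fell by 1.41 (SE 0.21, adjusted p = 1.80e-07), and Blvrb, a reductase of the haem breakdown path, by 1.61 (SE 0.25, adjusted p = 4.25e-07).

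The interleukin 1 receptor gene Il1r1 fell by 1.65 (adjusted p = 2.94e-05), and Sh3pxd2b, an adaptor of podosomes, by 1.62 (adjusted p = 3.25e-06), the second with a difference of 1.31 in right legs. Dimmer still were Orm1, an acute phase protein (-1.82, adjusted p = 2.66e-05), Ces1f, a carboxylesterase (-1.61, adjusted p = 4.59e-05), and Klk8, a serine protease (-1.45, adjusted p = 1.48e-06), whose left signals stayed under 16. For these dim genes the log2 difference of signal plus 3.98 understates the ratio of the signals.

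The left legs were set against sham legs at the earlier days as well, with 5 left and 3 sham arrays at day 2 and 7 of each at day 7, all from other animals than those of day 14. At day 2, 1602 genes were called (9.99%), 695 higher (4.34%) and 907 lower (5.66%), and at day 7, 3069 were (19.1%), 1555 higher (9.70%) and 1514 lower (9.45%). The difference between days was itself tested, and it passed for 16 genes between days 14 and 7 (0.0998%, 8 higher and 8 lower, 0.0499% each) and for 13 between days 14 and 2 (0.0811%, 2 higher, 0.0125%, and 11 lower, 0.0686%). At an unadjusted p below 0.05 these counts were 1766 and 1583, and the small counts moved between 6 and 30 and between 5 and 34 on leaving out single arrays of day 14. The first was 6 without left replicate 4, 27 without left replicate 3, 30 without sham replicate 4 and 29 without sham replicate 8. The second was 34 without left replicate 3, 5 without left replicate 4, left replicate 5 or sham replicate 6, 6 without sham replicate 4 and 7 without sham replicate 3.

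Psat1 and Ccdc134 passed in both sets, and Psat1 had log2 differences from sham of 0.13 at day 2, -0.28 at day 7 and -1.60 at day 14. Tnfrsf12a differed from sham by 0.53 at day 2, -0.67 at day 7 and -1.54 at day 14, and its change between days 2 and 14 passed (-2.07, SE 0.40, adjusted p = 0.00713). Akt1 differed by 0.40, -0.19 and -0.46 in the same order of days (day 14 minus day 2 of -0.86, adjusted p = 0.00929). Mid1ip1, a regulator of fatty acid synthesis, gave 777, 1313, 894, 981 and 1669 in left legs of day 14, against 426 to 529 with a median of 497 in sham legs of day 14. Its log2 difference of 1.14 at day 14 (adjusted p = 3.17e-08) stood beside no call at day 7 (adjusted p = 0.989), and the change between these days was 1.15 (adjusted p = 0.00455). The flavin monooxygenase genes Fmo1 and Fmo2 did likewise, with 0.59 and 1.05 at day 14 beside -0.10 and -0.03 at day 7. For Mid1ip1, Fmo1 and Fmo2 the medians were 981, 260 and 149 in left legs of day 14. They were 943, 259 and 135 in naive legs and 497, 165 and 69.7 in sham legs of day 14, so the sham legs were the low group. No clock gene passed the test between days, and Per2 differed from sham by 2.02 at day 2, 1.31 at day 7 and 2.94 at day 14.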

How the data were processed

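Gastrocnemius RNA was measured on Affymetrix arrays, 1 muscle per array. The deposited values are linear probe set intensities, for which the submitters' processing notes name MAS5 and GCOS. Versions of these programs are not given in the sources used here. Trimmed array means lay between 99.9552 and 99.9599, so the deposited arrays share a scale. Per the labels' protocols, biotinylated cRNA was made from total RNA extracted with Trizol and column purification.

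Groups, days, legs and animals came from the sample labels. The members and gene lists were chosen with earlier results of these data known. Probe sets with a single gene in the platform annotation (34958 of 45101, of which 34754 were found in the reference gene table) were used. Probe sets had to exceed the 40th percentile of at least 5 arrays, and the kept probe set with the highest mean stood for the gene, giving 16029 of 18194 genes.

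Before taking log2, 3.98 (the 20th percentile over every array) was added, so fold changes of dim genes are understated. A limma model (limma 3.58.1, R 4.3.3) fitted 16 group means to all 111 arrays, treating animals as random blocks (consensus correlation 0.0964), with an intensity trend in the variance. P values were adjusted by the Benjamini-Hochberg method within each of 9 comparisons, with a threshold of 0.05. The 5 array measures were compared by two-sided exact permutation tests. Correlations between the 13 arrays of left and sham legs lay between 0.931 and 0.969. On simulated data made from these arrays for the left against sham comparison with 16029 genes, the test recovered 77 of 100 genes changed by 1 and 94 of 100 changed by 1.5 on the log2 scale, and called 8 unchanged genes.

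Named genes were, by a written rule, the 15 largest increases and 15 largest decreases among called genes whose left and sham values did not overlap (3 unnamed genes were passed over), the first members of each list by p value, and a fixed set of familiar muscle genes. The rule also took the genes with the smallest p value in each test between days. Genes outside the rule were chosen after their values were seen, also where the text does not say so. Among these are Irs1, Smad3, Fst, Mtor, Acvr2b, Glul, Cebpb, Nfkbia, Depp1, Angptl4, Zbtb16 and Psmc2. Promoters came from RefSeq tables (GRCm38.p6), and figures were drawn in Python 3.11.15 with matplotlib 3.10.9. Alternatives tried were other pseudocounts and filters, quantile normalization, fitting the 13 arrays alone, no animal block, no trend, array weights, averaged probe sets, the beta-actin ratio as a covariate, leaving out single arrays, a replicate block, naive legs as control, right legs in place of left, and linear array measures. Replicate numbers shared by left and sham legs name different animals. The number of arrays limits precision.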

Additional observations from a re-analysis of the deposited data

Results flagged for a closer look

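In 17 of 286 groups of values examined, 1 array stood far from the others of its group by Dixon's test at the 95% level, and chance gives about 1 in 20. Left replicate 4 accounted for 5 of them and sham replicate 8 for 4.

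Left replicate 4 had Orm1 at 8.78 (0.527 to 1.504 in the other left legs), Myh4 at 16500 (12600 to 13100), Tsc22d3 at 1281 (1508 to 1555), Ryr1 at 13500 (11300 to 11800) and Ccdc134 at 46.9 (79.0 to 93.7). Left replicate 3 had Per1 at 207 (365 to 453). Sham replicate 8 had Igf1 at 396 (597 to 814 in the other sham legs), Hba-a1 at 8.74 (1.05 to 3.06), an array median of 24.7 (16.2 to 19.8) and a distance from the naive mean of 0.601 (0.417 to 0.470). Sham replicate 1 had Psat1 at 21.4 (33.0 to 46.4) and Cpa3 at 51.4 (77.4 to 97.4). Single values stood apart for Cry2 in sham replicate 4 (131, others 72.5 to 95.1), Nnt in sham replicate 6 (1518, others 1094 to 1250), Psmb5 in sham replicate 2 (2350, others 2051 to 2184), Igf1r in sham replicate 3 (48.0, others 63.5 to 77.8) and Retn in sham replicate 5 (152, others 93.8 to 117).

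The difference between left and sham legs itself differed between days, by limma's test of that difference, for several named genes. From day 7 to day 14 it changed by 0.69 for Fmo1, -0.86 for Ccdc134, 1.15 for Mid1ip1 and 1.09 for Fmo2 (adjusted p = 0.00455 for each) and by -1.33 for Psat1 (adjusted p = 0.0115). From day 2 to day 14 it changed by -1.73 for Psat1 (adjusted p = 0.00673), -2.07 for Tnfrsf12a (adjusted p = 0.00713), -0.86 for Akt1 (adjusted p = 0.00929), -0.81 for Lsm10 (adjusted p = 0.0121) and -0.66 for Psmg1 (adjusted p = 0.0200). Lsm10 is a subunit of the histone mRNA processing complex and Psmg1 a chaperone of proteasome assembly.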

How the results depend on the processing

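The count of 3326 called genes stayed within 1.5 times under every alternative to the left against sham comparison except the other reading of the operated leg. It ran from 2311 with the replicate block to 3423 after quantile normalization, was 2698 with the 13 arrays alone, and was 2720 with averaged probe sets, where 2065 of the 3326 genes were called in the same direction and 16 in the opposite one. With right legs in place of left it was 5758, of which 3303 were higher, and 2091 of the 3326 genes were called in the same direction and 114 in the opposite one. With naive legs in place of sham legs it was 2895, with 1918 of the 3326 in the same direction. Leaving out single arrays gave 2800 to 3325 called genes, 1343 to 1624 higher and 1453 to 1712 lower. The replicate block left 2311 genes on 10 arrays, but the shared numbers name different animals, none of 5 pairs had a correlation of deviations above 0.1 (-0.02 to 0.03), and 1 of 5 left arrays matched best with its own number. Of the named genes 138 were followed through the alternatives. Acvr2b, Angptl4, Cebpb, Cry1, Csnk1d, Csnk1e, Depp1, Fst, Glul, Irs1, Mtor, Nfkbia, Nr1d2, Psmc2, Rora, Smad3 and Zbtb16 were not. Slc2a4 was the 1 followed gene whose call the replicate block ended (adjusted p = 0.0600).

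Genes called different between days depended most on the settings, which were applied to these counts and to the list counts after seeing the data. Between days 14 and 2 the 13 genes became 4 with a pseudocount of 16, 8 with no filter, 8 with no animal block, 6 with no intensity trend, 3 with array weights and 21 with the beta-actin covariate, and 5 to 34 on leaving out single arrays (left replicates 3, 4 and 5 and sham replicates 3, 4 and 6 moved it by over 1.5 times). Between days 14 and 7 the 16 genes became 33 with the stricter filter, 10 with averaged probe sets, 29 without sham replicate 8, and 6 to 30 on leaving out single arrays (left replicates 3 and 4 and sham replicates 4 and 8). The cause was not tested.

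With naive legs in place of sham legs the sign turned for Ddit4 (-0.024), Npas2 (0.54), Ccdc134 (0.13) and Lsm10 (0.067). With right legs in place of left it turned for Sln (2.80), Mmp14 (2.31), Timp1 (1.64), Lum (1.45), Lox (1.37), Egr1 (1.31), Hspa1b (1.31), Sh3pxd2b (1.31), Tnmd (1.29), Mt2 (1.27), Tppp3 (0.81), C1qc (0.63), Lgmn (0.60), C1qa (0.59), Mrc1 (0.52), Lyz2 (0.47), C1qb (0.39), Mfap5 (0.34), Nnt (-0.0085), Sgk1 (-0.018), Sstr3 (-0.038) and Slc2a4 (-0.21). Of the 121 called genes among those followed, 120 kept their call with the beta-actin covariate. All 121 kept it under either pseudocount and quantile normalization, and 107 with averaged probe sets. Averaging ended the calls of Map1lc3b, Fabp4, Sod1, Slc2a4, Aco1, Mmp14, C1qb, Fbxo30, Timp3, Jun, Myh1, Akt1, Ryr1 and Psap. With no filter Sstr3 was 0.43 (adjusted p = 0.339).

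Leaving out single arrays turned the sign of none of the named genes that were followed. Beside the losses given above for Ddit4, Nnt, Lgmn, Myl2, Jun, Lox and Ryr1, calls were lost for Foxo1 without left replicate 2, 4 or 5 or sham replicate 2, 3, 5 or 8, for Myh1 without left replicate 2, 4 or 5 or sham replicate 3, 4 or 5, for Chrnb1 without left replicate 1, 2 or 4 or sham replicate 2, 3 or 5, for Egr1 without left replicate 2 or 4 or sham replicate 1 or 7, for Mmp14 without left replicate 2 or 5 or sham replicate 2 or 4, and for C1qc without left replicate 1 or 5 or sham replicate 2. The higher beta-actin ratio of left legs passed its exact permutation test on linear values too (difference 0.208, adjusted p = 0.00311), and the distance from naive was computed on the log2 scale only. The number of arrays and the low signal of dim genes limit precision.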

Other observations

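Smooth muscle and mast cell genes were outside the lists, and those given here beside Myh11 were chosen after their values were seen. Myh11, the smooth muscle myosin heavy chain, gave 183, 235, 246, 193 and 263 in left legs, against 38.9 to 109.6 with a median of 75.3 in sham legs, and rose by 1.54 (SE 0.16, adjusted p = 3.22e-13 by limma). Acta2, smooth muscle actin, gave 1226, 1529, 1505, 1132 and 1255 in left legs, against 527 to 1129 with a median of 768 in sham legs (log2 difference 0.81, SE 0.15, adjusted p = 2.64e-05). Neither gene's groups overlapped, although the lowest Acta2 value in left legs and the highest in sham legs nearly met. Tagln, transgelin, rose by 0.79 (adjusted p = 0.000517) and Cnn1, calponin, by 1.19 (adjusted p = 0.000640), both with overlap. All 4 were also higher in right legs than in sham legs (1.53, 1.08, 1.26 and 1.42 in the order Myh11, Acta2, Tagln, Cnn1). At day 7 their left against sham differences were 1.08, 1.01, 0.86 and 1.30 in the same order, and at day 2 they were 0.94, 0.90, 0.92 and 1.14. Sham legs differed from naive legs by -0.56 for Myh11 (adjusted p = 0.0139) and by 0.04 for Acta2 (adjusted p = 0.939).

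The mast cell chymase Cma1 gave 31.2, 27.1, 45.5, 36.4 and 34.0 in left legs, against 58.9 to 100 with a median of 78.2 in sham legs, and fell by 1.09 (SE 0.19, adjusted p = 3.25e-06) without overlap. It was also lower at day 2 (-1.10) and day 7 (-0.65), and in right legs its difference from sham was -0.71 (adjusted p = 0.00127).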
